A study of Mus musculus with 2 samples.

Results

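Among natural killer (NK) cells sorted from mouse brain, the 290 barcodes with the highest share of transcripts from 6 genes, Gzmb, Gadd45g, Socs1, Cish, Myc and Srm, were described against the other 2612 NK barcodes. The ranking was made over both libraries together and took the top 10% of 2902 NK barcodes, out of 3404 deposited barcodes. A barcode counted as NK when it had at least 300 genes, at most 10% mitochondrial UMIs and a UMI of Ncr1 or Klrb1c. It also had at most 2 summed UMIs of Itga1, Cxcr6, Inpp4b, Gzmc and Tnfsf10, and none of Cd3d, Cd3e, Cd3g, C1qa, C1qb or C1qc. Members were chosen by these measured UMI counts, so every difference between members and the remaining NK barcodes is a description, with no test.

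The series holds 1 library from brains of wildtype C57BL/6 mice, labelled healthy, and 1 from brains of 3XTg-AD mice, which carry transgenes that model Alzheimer's disease. All mice were untreated females of 8 months. The labels do not give the number of mice pooled, the promoters of the transgenes, the background strain of the 3XTg-AD line or the antibodies of the sort. With 1 library per line there is no replicate, so line and library cannot be told apart, and each printed interval is a 95% interval for counting error alone.

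The wildtype library held 1709 barcodes with 5559995 UMIs and the 3XTg-AD library 1695 barcodes with 5468455 UMIs. The filters left 1445 and 1457 NK barcodes. Members were 222 wildtype barcodes, 15.4% (13.5 to 17.3, exact binomial interval), and 68 3XTg-AD barcodes, 4.67% (3.64 to 5.88). Because the ranking genes themselves differed between the libraries, these shares are not a comparison of cell numbers. Members had a median of 3274 UMIs in wildtype against 2800 in the rest, and 3259 against 2757 in 3XTg-AD. Their median mitochondrial share was 1.10% against 1.46% in wildtype and 0.892% against 1.21% in 3XTg-AD. The libraries shared 1 barcode sequence, which was in no member.

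NK cells kill by releasing perforin and granzymes from granules, and interleukin-15 and related cytokines, acting through STAT5, raise the granule content and keep the cells alive. Gzmb encodes granzyme B, a protease that starts apoptosis in the target cell. Socs1 and Cish encode feedback inhibitors of cytokine signalling, and Gadd45g a stress-response protein that feeds the p38 kinase pathway. Myc encodes a transcription factor of growth, and Srm the enzyme spermidine synthase. Resting NK cells of mice are known to store granzyme B messenger RNA with little protein, and priming by cytokines goes with growth and protein synthesis.

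The promoter windows shown are of ranking genes and of ribosome assembly genes described below, and only windows with a motif match are printed. Each runs from 250 bases before to 50 bases after the start of the gene, from RefSeq on build GRCm38.p6, with capitals marking matches to the STAT motif TTCNNNGAA or the E-box CACGTG, searched on both strands. Both motifs read the same on either strand and do not overlap each other here. The windows of Socs1, Nop16 and Ncl, not printed, held neither motif, and that of Nop58 held a STAT match and no E-box. The windows are Gzmb at chr14:56262285-56262584 on the minus strand, Cish at chr9:107296409-107296708 on the plus strand, Pno1 at chr11:17211540-17211839 on the minus strand, Tsr1 at chr11:74897830-74898129 on the plus strand and Grwd1 at chr7:45830740-45831039 on the minus strand.
Gzmb: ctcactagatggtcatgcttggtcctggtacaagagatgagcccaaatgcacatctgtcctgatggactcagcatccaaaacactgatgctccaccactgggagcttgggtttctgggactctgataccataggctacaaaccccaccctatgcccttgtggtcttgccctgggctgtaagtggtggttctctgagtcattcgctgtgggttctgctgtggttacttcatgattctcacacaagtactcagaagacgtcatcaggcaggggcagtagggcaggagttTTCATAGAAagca
Cish: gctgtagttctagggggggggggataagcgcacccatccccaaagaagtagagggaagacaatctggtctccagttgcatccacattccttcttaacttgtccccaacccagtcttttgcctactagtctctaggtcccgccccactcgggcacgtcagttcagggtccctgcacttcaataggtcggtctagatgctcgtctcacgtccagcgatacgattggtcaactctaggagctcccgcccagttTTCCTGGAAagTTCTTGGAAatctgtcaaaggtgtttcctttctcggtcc
Pno1: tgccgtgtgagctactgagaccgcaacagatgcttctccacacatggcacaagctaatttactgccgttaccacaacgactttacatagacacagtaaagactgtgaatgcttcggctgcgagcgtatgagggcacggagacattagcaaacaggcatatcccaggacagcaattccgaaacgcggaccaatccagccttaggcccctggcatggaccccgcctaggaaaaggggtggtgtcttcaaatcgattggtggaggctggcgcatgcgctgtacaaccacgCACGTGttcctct
Tsr1: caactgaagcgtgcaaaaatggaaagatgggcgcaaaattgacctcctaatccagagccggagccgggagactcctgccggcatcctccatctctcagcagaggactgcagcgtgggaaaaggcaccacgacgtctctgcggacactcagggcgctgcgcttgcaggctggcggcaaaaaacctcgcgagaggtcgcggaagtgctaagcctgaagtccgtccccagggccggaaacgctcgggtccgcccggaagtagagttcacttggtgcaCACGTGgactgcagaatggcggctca
Grwd1: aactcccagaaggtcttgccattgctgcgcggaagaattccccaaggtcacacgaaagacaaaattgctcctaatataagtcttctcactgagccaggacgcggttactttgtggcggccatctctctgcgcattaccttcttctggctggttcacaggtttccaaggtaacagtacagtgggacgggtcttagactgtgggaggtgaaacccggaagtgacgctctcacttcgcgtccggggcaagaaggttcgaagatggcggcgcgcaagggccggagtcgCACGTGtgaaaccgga

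The STAT motif was in the windows of 9.55% of all 27025 genes in the RefSeq table, and of 8.10% of the counted genes that matched it. Cish had 2 matches side by side at its start and Gzmb had 1, while the Socs1 and Gadd45g windows held none and Gadd45g held 1 E-box. The E-box was in windows of 8.09% of all genes and of 12.4% of the 3962 counted genes that matched the table. Among ribosome biogenesis genes it was in 13 of 52, or 25%, and among the genes higher in members of both libraries in 14 of 93, or 15.1%. Among the genes lower in both it was in 21 of 148, or 14.2%, close to that share. The STAT motif was in 11 of the 93 higher genes, 11.8%, and in 25 of the 148 lower genes, 16.9%. A match is a run of letters, not a bound site.

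The score itself was mostly Gzmb, which gave 90.0% of the members' score UMIs in wildtype and 93.8% in 3XTg-AD. The median score share was 0.920% of a barcode's UMIs in wildtype members, with a highest value of 8.52%, and 0.666% in 3XTg-AD members, with a highest value of 2.22%. In the remaining NK barcodes the medians were 0.0956% and 0.116%. The lowest members stood at 0.505%, 0.503% and 0.503%, with 13 to 18 score UMIs each, and the highest barcodes left out at 0.502%, 0.501% and 0.501%. The curve of ranked shares had no step at that line, so the cut falls within a continuous range of scores. Whether the members form a separate group of cells by their other genes was not tested.

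**Figure D1:**
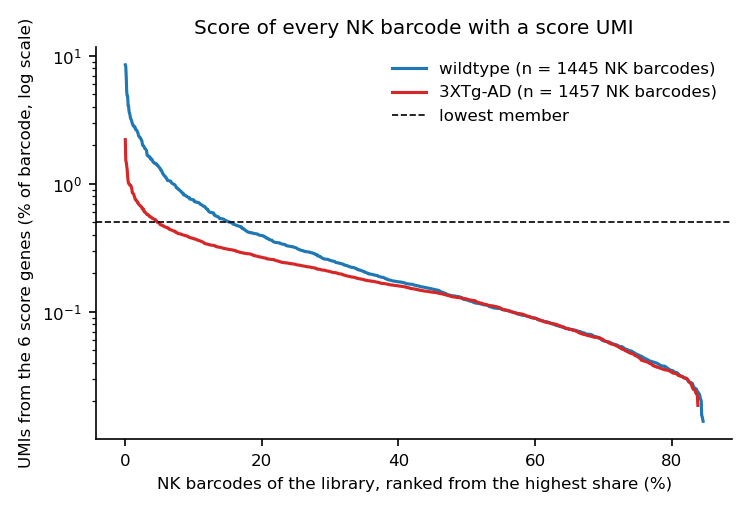
Share of each NK barcode's UMIs that came from the 6 score genes, as a percent on a log axis, against the barcode's rank within its library in percent; barcodes without a score UMI are not drawn, and the dashed line marks the lowest member. The wildtype curve runs above the 3XTg-AD curve among the highest barcodes, up to 8.52% against 2.22%, and both cross the line without a step.

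The 6 ranking genes did not move together in the same way in both libraries. In wildtype, Gadd45g stood at 469 CPM (UMIs scaled to a common total of all UMIs) in members and 61.5 CPM in the rest, and in 3XTg-AD at 55.1 and 56.8 CPM. Socs1 stood at 456 and 85.8 CPM in wildtype and at 131 and 60.8 CPM in 3XTg-AD. Gadd45g therefore was 7.72-fold (6.52 to 9.16) higher in wildtype members and 0.977-fold (0.513 to 1.70) in 3XTg-AD members, although it was part of the score. Cish was 6.16-fold and 2.29-fold, Myc 5.91-fold and 3.81-fold, and Srm 2.89-fold and 4.68-fold higher in wildtype and 3XTg-AD members. Gzmb alone supplied the score of 28 of 222 wildtype members, 12.6% (8.55 to 17.7), and of 28 of 68 3XTg-AD members, 41.2% (29.4 to 53.8). At least 4 of the 6 genes were detected in 83 wildtype and 6 3XTg-AD members. The rule itself fixed these levels, so they are no check of the name of a cytokine-primed, Socs1-high cell. In 3XTg-AD Gadd45g was not higher and Socs1 had a UMI in 16 of 68 members, so the barcodes are called Gzmb-high NK barcodes here.

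Each ranking gene was also measured in barcodes ranked by the other 5. In wildtype, Gzmb was then 4.72-fold (4.56 to 4.89) higher in the top barcodes, Gadd45g 7.01-fold (5.93 to 8.30) and Socs1 5.0-fold (4.28 to 5.84). In 3XTg-AD the same ratios were 1.44 (1.30 to 1.58) for Gzmb, 0.938 (0.492 to 1.64) for Gadd45g and 2.09 (1.39 to 3.04) for Socs1. Srm and Myc were higher in both libraries, Srm 2.80-fold (2.14 to 3.65) and 4.54-fold (3.02 to 6.67), and Myc 5.12-fold (3.97 to 6.59) and 3.49-fold (2.10 to 5.55). All 6 ratios were above 1 in wildtype. In 3XTg-AD all but that of Gadd45g were above 1, with an interval that reached below 1 for Cish at 1.83 (0.808 to 3.63). Gzmb gave most of the score, so the rankings that left out another gene were mostly by Gzmb. Apart from the Gzmb ratio, these values thus mainly describe each gene against Gzmb. They do not show whether the 6 genes vary together, and they are no check of the name.

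NK identity markers were present in the members of both libraries. Klrd1, the CD94 receptor chain, stood at 610 and 552 CPM in wildtype members and rest, and at 611 and 575 CPM in 3XTg-AD; from here on CPM leave the 6 score genes out of the totals. Tbx21, which encodes the transcription factor T-bet, stood at 280 and 290 CPM and at 380 and 374 CPM. Eomes, also an NK marker, was lower in members, at 147 and 232 CPM and at 137 and 244 CPM. Nkg7 stood at 6168 and 4815 CPM and at 5239 and 4909 CPM. The NK markers Prf1 and Gzma, given below, were higher in members. Genes of the T cell list summed to 431 CPM in wildtype members and 432 in the rest, and to 410 and 429 in 3XTg-AD, with Cd4, Cd8a, Cd8b1, Cd5 and Cd6 at 0 in all 4 groups. P2ry12 and Tmem119, which define microglia, and S100a8 and S100a9, which define neutrophils, were at 0 in members of both libraries. These genes were also at 0 in the wildtype rest. The whole microglia and macrophage list was not absent from members. It summed to 389 CPM in wildtype members and 381 in the rest, and to 338 and 427 in 3XTg-AD. Among the rest, 2 wildtype barcodes and 1 3XTg-AD barcode had over 20% of UMIs from haemoglobin or neutrophil genes, and leaving them out gave 100 genes higher and 203 lower in both libraries in place of the 102 and 202 below. Doublet calling marked 0 wildtype and 1 3XTg-AD member, among 13 and 22 barcodes marked in the 2 libraries.

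Over the 4939 genes with at least 100 UMIs in the NK barcodes of each library, 102 genes, 2.07%, were at least 1.5-fold higher in members of both libraries and 202, 4.09%, at least 1.5-fold lower in both. In wildtype alone 307 genes, 6.22%, were higher and 550, 11.1%, lower; in 3XTg-AD alone 393, 7.96%, were higher and 805, 16.3%, lower. The median log2 ratio over all of these genes was -0.02 in wildtype and -0.04 in 3XTg-AD. These counts move with the settings, from 13 at 2-fold to 230 at a minimum of 20 UMIs for genes higher in both libraries.

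Perforin and granzyme A, granule killing proteins outside the score, had more transcripts in members of both libraries. Prf1, at chr10:61297833-61304680 of build mm10 (GENCODE gene models, as for all gene positions here) and encoding the protein that opens pores in target membranes, stood at 2849 CPM in wildtype members, 1032 in the wildtype rest, 2564 in 3XTg-AD members and 1196 in the 3XTg-AD rest. Members of both libraries were above both remaining groups, 2.76-fold (2.62 to 2.91) in wildtype and 2.14-fold (1.97 to 2.33) in 3XTg-AD. Gzma, encoding granzyme A, stood at 30116 and 18261 CPM in wildtype and at 26695 and 19747 CPM in 3XTg-AD, 1.65-fold (1.62 to 1.67) and 1.35-fold (1.32 to 1.39) higher. With each barcode thinned to 1400 UMIs, Prf1 had a UMI in 186 of 207 wildtype members, 89.9%, and 724 of 1124 others, 64.4%. In 3XTg-AD it had one in 57 of 65 members, 87.7%, and in 907 of 1313 others, 69.1%. Unthinned, the shares were 95.9% and 79.6% in wildtype and 97.1% and 83.9% in 3XTg-AD. No Prf1 UMI was in the 2 wildtype and 12 3XTg-AD thinned barcodes with C1q transcripts and no NK gene, which allows shares up to 84.2% and 26.5% (exact binomial).

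Serine protease inhibitors of the Serpinb9 group, whose best known member protects killer cells from their own granzyme B, were also higher. Serpinb9b, at chr13:33027416-33041884, stood at 320 and 104 CPM in wildtype members and rest and at 346 and 126 CPM in 3XTg-AD, 3.07-fold (2.60 to 3.61) and 2.74-fold (2.14 to 3.47). Serpinb9 stood at 862 and 364 CPM and at 739 and 475 CPM, 2.37-fold and 1.56-fold. The genes of this group are near-identical copies, so how UMIs were divided among them is uncertain. Of the 19 counted cytotoxic effector genes outside the score, Prf1, Serpinb9b and Serpinb9 were past 1.5-fold upward in both libraries and Gzmk downward, with medians of 0.05 in wildtype and 0.18 in 3XTg-AD on the log2 scale. List genes needed 20 UMIs in each library, and over all 8552 such genes 2.69% were higher and 6.45% lower in both, with medians of -0.08 and -0.03.

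**Figure D2:**
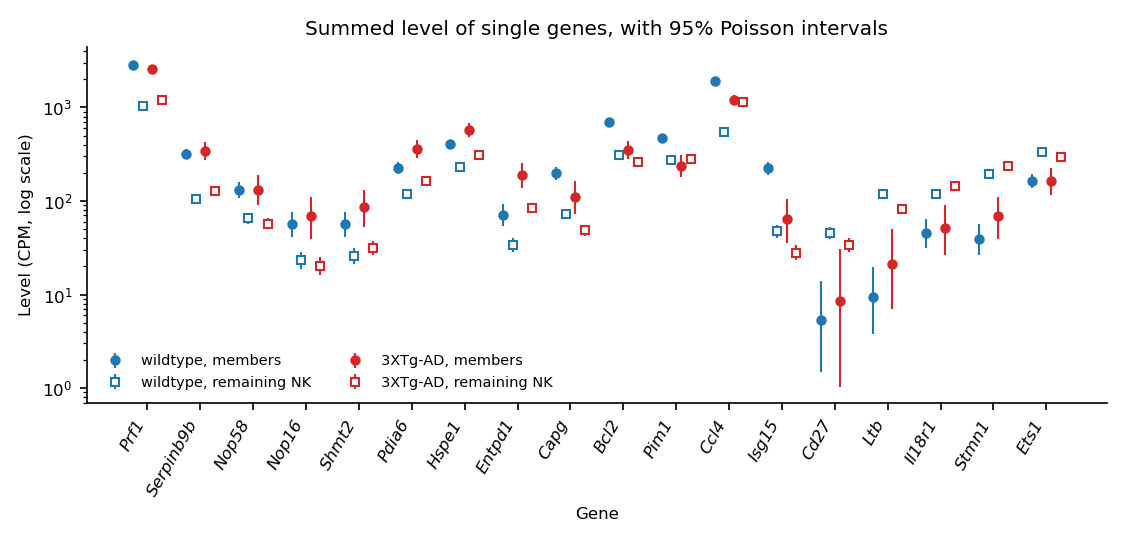
Summed level of 18 genes in CPM on a log axis, for members (filled) and remaining NK barcodes (open) of each library, with 95% Poisson intervals; 1 library per line. Prf1, Serpinb9b, Nop58 and Pdia6 are higher in members of both libraries, Ccl4 and Pim1 in wildtype members only by more than 1.5-fold, and Ltb, Cd27 and Stmn1 are lower in members of both.

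Genes that assemble ribosomes were the list with the most members higher in both libraries, 25 of 57 counted and none lower, with medians of 0.74 in wildtype and 0.62 in 3XTg-AD. Nop58, at chr1:59684971-59719044 and encoding a core protein of the particles that methylate ribosomal RNA, stood at 132 and 65.1 CPM in wildtype and at 132 and 57.3 CPM in 3XTg-AD. It was 2.03-fold (1.59 to 2.58) and 2.31-fold (1.54 to 3.37) higher. Nop16, which encodes a nucleolar protein of large subunit assembly and is known as a MYC target, stood at 56.7 and 23.3 CPM and at 68.4 and 20.3 CPM, 2.44-fold (1.64 to 3.56) and 3.37-fold (1.84 to 5.79). The genes whose E-box windows are printed above were picked among list genes higher in both libraries that held an E-box. Neither their direction nor their E-box is thus a finding: Pno1 was 2.89-fold and 2.43-fold, Tsr1 3.62-fold and 3.58-fold, and Grwd1 2.09-fold and 4.29-fold. Pno1 and Tsr1 act in small subunit assembly and Grwd1 in large subunit assembly. The low counts behind Grwd1 in 3XTg-AD members, 6 UMIs, give an interval of 1.44 to 10.7. Ncl, encoding nucleolin, stood at 460 and 283 CPM and at 402 and 256 CPM, 1.62-fold and 1.57-fold. The list summed to 5323 CPM in wildtype members against 3418 in the rest, and to 4461 against 3144 in 3XTg-AD.

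Transcripts of the ribosomal proteins themselves went the other way by a small amount. The 79 cytosolic ribosomal protein genes summed to 172438 CPM in wildtype members and 206411 in the rest, 0.835-fold (0.830 to 0.840), and to 158472 and 179624 CPM in 3XTg-AD, 0.882-fold (0.873 to 0.891). Their median log2 ratios were -0.23 and -0.14, and none of the 79 passed 1.5-fold in both libraries. In 3XTg-AD the median was above 0 in 2 of 15 alternatives, at 0.04 with the score taken without Gzmb and 0.11 with barcodes ranked by mean rank of the 6 genes.

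Folding enzymes of the endoplasmic reticulum, where secreted and granule proteins are made, were higher in members of both libraries for 11 of 26 counted genes and lower for none. Hspa5, at chr2:34771970-34777547 and encoding the chaperone BiP, stood at 411 and 193 CPM in wildtype members and rest and at 449 and 261 CPM in 3XTg-AD. It was 2.12-fold (1.85 to 2.43) and 1.72-fold (1.39 to 2.10) higher. Pdia6, a disulfide isomerase, stood at 226 and 118 CPM and at 363 and 166 CPM, 1.92-fold (1.60 to 2.30) and 2.19-fold (1.73 to 2.75). Xbp1, the transcription factor of the unfolded protein response, was 2.23-fold and 1.70-fold higher, and Calr, encoding calreticulin, 1.73-fold and 1.75-fold. The list medians were 0.66 and 0.60, and with the score taken without Gzmb the 3XTg-AD median was 0.05.

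Serine and folate metabolism, which feeds nucleotide synthesis, showed the same direction for 6 of 15 counted genes. Shmt2, at chr10:127517123-127522444 and encoding a mitochondrial serine hydroxymethyltransferase, stood at 56.7 and 26.0 CPM and at 85.5 and 31.5 CPM, 2.18-fold (1.48 to 3.17) and 2.71-fold (1.60 to 4.36). Mthfd2, the next enzyme of the mitochondrial folate route, was 4.59-fold (2.91 to 7.20) and 2.98-fold (1.36 to 5.87) higher, and the amino acid carrier gene Slc7a5 3.14-fold (1.97 to 4.94) and 2.36-fold (0.906 to 5.21). Odc1, encoding the enzyme before spermidine synthase in polyamine production, stood at 142 and 57.0 CPM and at 103 and 51.6 CPM, 2.49-fold and 1.99-fold. Nme1, a nucleoside diphosphate kinase, was 1.91-fold and 1.98-fold higher.

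Mitochondrial import genes and chaperones were higher in both libraries for 6 of 26, with medians of 0.32 and 0.42. Hspe1, the mitochondrial chaperonin cap, stood at 402 and 230 CPM and at 573 and 309 CPM, 1.75-fold and 1.86-fold. By contrast, none of 75 nuclear genes of oxidative phosphorylation, none of 17 glycolysis genes and none of 37 proteasome genes passed 1.5-fold in both libraries. Their medians were 0.09 and 0.12, 0.26 and 0.16, and 0.18 and 0.38. Among 33 translation factors 4 were higher in both, including Eif4a1, the RNA helicase that unwinds messenger RNA for initiation, at 1.75-fold in each library, and Eef1e1, which encodes a scaffold of the tRNA synthetase complex, at 2.19-fold and 2.50-fold.

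**Figure D3:**
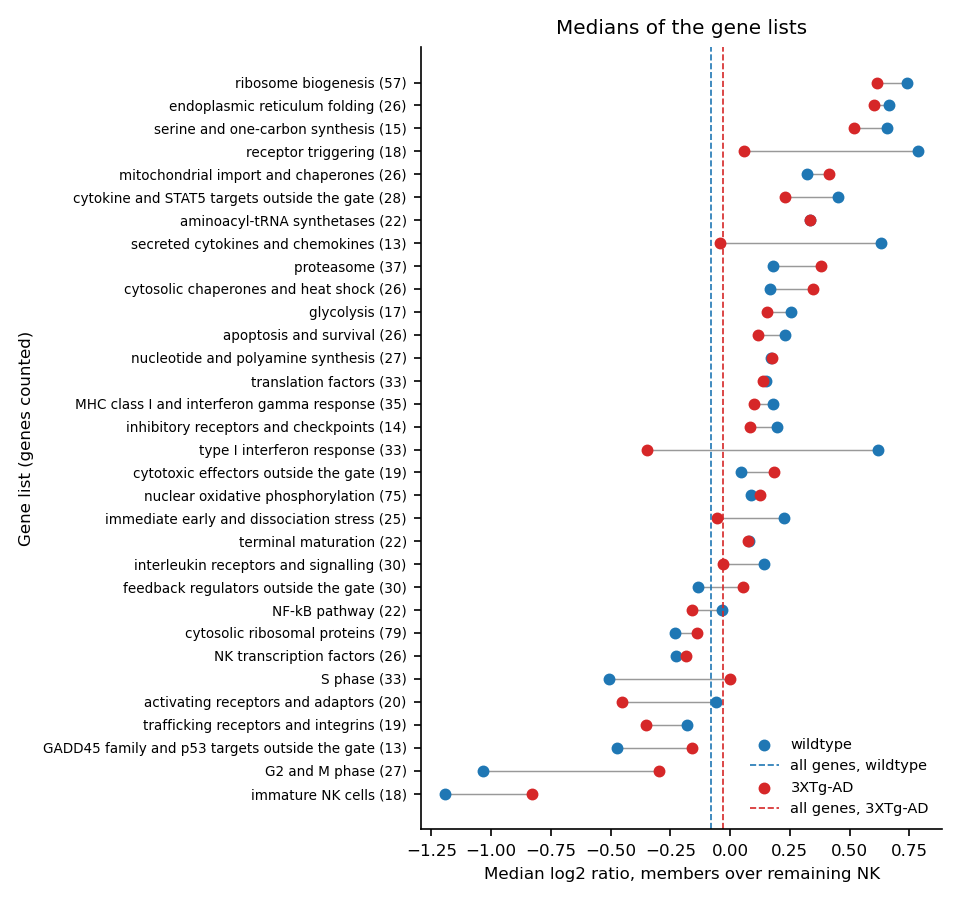
Median log2 ratio of members over remaining NK barcodes in each library for every gene list with at least 13 counted genes, with the number counted in brackets; dashed lines mark the median over all genes counted. Ribosome biogenesis and endoplasmic reticulum folding lie highest in 3XTg-AD, at 0.62 and 0.60, and next after receptor triggering in wildtype, at 0.74 and 0.66, the immature NK list lies lowest, and receptor triggering and the type I interferon response lie far apart between the libraries.

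Targets of cytokine and STAT5 signalling outside the score were higher in wildtype members for 13 of 28 counted genes and lower for 2, and in 3XTg-AD members higher for 4 and lower for 5, with medians of 0.45 and 0.23. Over all genes counted for lists, 8.51% were higher and 19.8% lower in wildtype, and 12.1% and 20.6% in 3XTg-AD. Bcl2, which encodes a survival protein, stood at 693 and 310 CPM in wildtype members and rest and at 355 and 259 CPM in 3XTg-AD. It was 2.24-fold (2.01 to 2.48) and 1.37-fold (1.08 to 1.71) higher. Pim1, a survival kinase gene, was 1.70-fold (1.5 to 1.92) in wildtype and 0.852-fold (0.639 to 1.11) in 3XTg-AD. Pim2, its relative at chrX:7878262-7883432, was 2.75-fold (2.18 to 3.45) and 0.928-fold (0.366 to 1.96). Past 1.5-fold upward in both libraries stood Slc7a5, Osm, which encodes the cytokine oncostatin M, and Tnfrsf9, the costimulatory receptor 4-1BB, at 1.80-fold (1.37 to 2.35) and 2.14-fold (1.51 to 2.97). Ltb of the same list, described below, was past 1.5-fold downward in both. Cell cycle entry gene Ccnd2, encoding cyclin D2, was 1.86-fold and 1.5-fold, and Nfil3, a transcription factor of NK development, 1.89-fold and 1.38-fold (0.805 to 2.23). Socs3, a second feedback inhibitor, had 16 UMIs in wildtype members and 0 in 3XTg-AD members.

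Of 30 counted interleukin receptor and signalling genes, 2 were higher and 3 lower in members of both libraries, with medians of 0.14 and -0.03. Il2rb, the beta chain shared by the interleukin-2 and interleukin-15 receptors, stood at 1313 and 946 CPM and at 1282 and 1046 CPM, 1.39-fold (1.29 to 1.49) and 1.23-fold (1.09 to 1.38). Il2ra, the high-affinity chain, had 1 UMI in the members of each library. Il18r1, a chain of the interleukin-18 receptor at chr1:40465552-40500854, was lower, at 45.9 and 119 CPM and at 51.3 and 145 CPM, 0.385-fold (0.264 to 0.547) and 0.352-fold (0.181 to 0.620). Il7r, the interleukin-7 receptor chain, had 4 UMIs in wildtype members and 231 in the rest, 0.0873-fold (0.0236 to 0.227). In 3XTg-AD it had 0 member UMIs and 111 in the rest, a fold of at least 2.07 downward when the floor of 3 UMIs is put in.

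Receptor triggering genes, which follow engagement of activating receptors, were at least 1.5-fold higher for 10 of 18 counted in wildtype members and for 3 in 3XTg-AD members, where 2 were lower, with medians of 0.79 and 0.06. Ranked without Gzmb in the score, the medians were 0.21 and 0.35. The list summed to 5122 CPM in wildtype members and 2233 in the rest, 2.29-fold (2.21 to 2.38), and to 3889 and 3337 CPM in 3XTg-AD, 1.17-fold (1.09 to 1.25). Ccl4, encoding the chemokine MIP-1 beta, stood at 1939 and 545 CPM in wildtype and at 1197 and 1141 CPM in 3XTg-AD. The wildtype ratio was 3.56 (3.32 to 3.81) and the 3XTg-AD ratio 1.05 (0.926 to 1.18), and the 3XTg-AD rest already lay above the wildtype rest. Ccl3 was 2.42-fold (2.10 to 2.80) and 1.46-fold (1.17 to 1.81). Irf8, a transcription factor at chr8:120736358-120756694 that NK cells raise on activation, was higher in both, at 1453 and 585 CPM and at 1094 and 726 CPM, 2.48-fold (2.30 to 2.67) and 1.51-fold (1.32 to 1.71). Nr4a1, an immediate target of antigen receptor signalling, had ratios of 2.87 and 2.35, but 1 barcode held 71.4% of its wildtype member UMIs and 1 barcode all 28 of its 3XTg-AD ones. Without those barcodes its log2 ratios were -0.28 in wildtype and -1.98 in 3XTg-AD, where no member UMI was left and the floor of 3 UMIs was used. Taking out each gene's top barcode from members alone lowered ratios in general, to a 3XTg-AD median of -0.21 over all genes counted.

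Ifng, encoding interferon gamma, stood at 70.2 and 39.1 CPM in wildtype, 1.80-fold (1.28 to 2.48), and at 29.9 and 36.6 CPM in 3XTg-AD, 0.818-fold (0.324 to 1.73). Xcl1, the lymphotactin gene, stood at 162 and 195 CPM and at 145 and 243 CPM, 0.829-fold (0.678 to 1.01) and 0.597-fold (0.411 to 0.840). Of 13 counted cytokine and chemokine genes 4 were higher in both libraries and 1, Ltb, lower. Among the 4 was Spp1, encoding osteopontin, for which 1 barcode held 75.0% of the 3XTg-AD member UMIs.

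The type I interferon list split by library. In wildtype 18 of 33 counted genes were at least 1.5-fold higher in members and none lower, with a median of 0.62. In 3XTg-AD 3 were higher and 13 lower, with a median of -0.35. Isg15, a ubiquitin-like protein gene at chr4:156199424-156200818, stood at 224 and 47.4 CPM in wildtype and at 64.1 and 28.0 CPM in 3XTg-AD, 4.73-fold (3.80 to 5.88) and 2.29-fold (1.24 to 3.94). Barcodes with at least 3 UMIs of 9 interferon-stimulated genes, after thinning, were 17 of 207 wildtype members, 8.21% (4.86 to 12.8), and 18 of 1124 others, 1.60% (0.952 to 2.52). In 3XTg-AD they were 0 of 65 members, which allows up to 5.52%, and 4 of 1313 others. Unthinned, they were 22 wildtype members and 37 others, and 0 and 17 in 3XTg-AD. With all such barcodes left out, the wildtype median of the list was -0.15, below 0.

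Genes of immature NK cells, which carry CD27 and lack the late receptor KLRG1, were lower in members. Of 18 counted genes, 10 were lower in both libraries and 1 higher, with medians of -1.19 and -0.83. Ltb, encoding lymphotoxin beta at chr17:35194439-35196320, stood at 9.45 and 119 CPM in wildtype and at 21.4 and 81.9 CPM in 3XTg-AD, 0.0797-fold (0.0319 to 0.166) and 0.261-fold (0.0841 to 0.614). Cd27, at chr6:125232622-125237010, had 4 UMIs in wildtype members and 2 in 3XTg-AD members, against 170 and 141 in the rest, 0.119-fold (0.0320 to 0.310) and 0.254-fold (0.0304 to 0.934). Tcf7, encoding the transcription factor TCF-1 of early lymphocytes, had 3 and 0 UMIs against 126 and 118. Klrg1 itself stood at 431 and 393 CPM and at 474 and 359 CPM, 1.10-fold (0.968 to 1.24) and 1.32-fold (1.08 to 1.60). Ranking by the 5 score genes other than Gzmb turned the list median to 0.91 in 3XTg-AD and left it at -0.63 in wildtype. Genes of type 1 innate lymphoid cells, outside those used to remove such cells, summed to 240 CPM in wildtype members and 535 in the rest, and to 214 and 354 CPM in 3XTg-AD; Ltb and Il7r belong to both lists. The part of such cells in these ratios was not tested.

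Of 26 counted NK transcription factor genes, 5 were lower in both libraries and 1, Irf8, higher, with medians of -0.23 and -0.19. Eomes, a T-box factor, stood at 147 and 232 CPM and at 137 and 244 CPM, 0.634-fold (0.515 to 0.775) and 0.560-fold (0.381 to 0.796). Ets1, another factor of NK development, stood at 165 and 337 CPM and at 162 and 296 CPM, 0.489-fold and 0.549-fold. S1pr1, the receptor for exit from tissue into lymph and blood, had 1 UMI in the members of each library against 85 and 110 in the rest, with ratios of 0.0593 (0.00149 to 0.340) and 0.163 (0.00408 to 0.925). Cxcr4, a chemokine receptor gene, had 2 and 1 UMIs against 47 and 86, with ratios of 0.215 (0.0253 to 0.820) and 0.208 (0.00521 to 1.19). In all, 4 of 19 trafficking genes were lower in both libraries and none higher.

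Dividing cells were few among members. Of 27 counted G2 and M phase genes 7 were lower in both libraries and none higher, with medians of -1.03 and -0.30; by mean rank of the 6 genes the 3XTg-AD median was 1.24. Birc5, encoding survivin, had 0 UMIs in members of both libraries and 100 and 121 in the rest, at least 6.61-fold and 2.25-fold lower at that floor. Stmn1, which encodes a microtubule regulator high in cycling cells, stood at 39.2 and 195 CPM and at 68.4 and 238 CPM, 0.201-fold and 0.287-fold. Hmgb2, a chromatin protein gene of the same cells, stood at 132 and 399 CPM and at 128 and 371 CPM, 0.331-fold and 0.345-fold. Barcodes with a UMI of Mki67, Top2a, Birc5, Ccnb2, Cdk1 or Ube2c were 5 of 222 wildtype members, 2.25% (0.735 to 5.18), and 41 of 1223 others, 3.35% (2.42 to 4.52). In 3XTg-AD they were 1 of 68, 1.47% (0.0372 to 7.92), and 45 of 1389, 3.24% (2.37 to 4.31). The intervals of members and others overlap in each library.

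**Figure D4:**
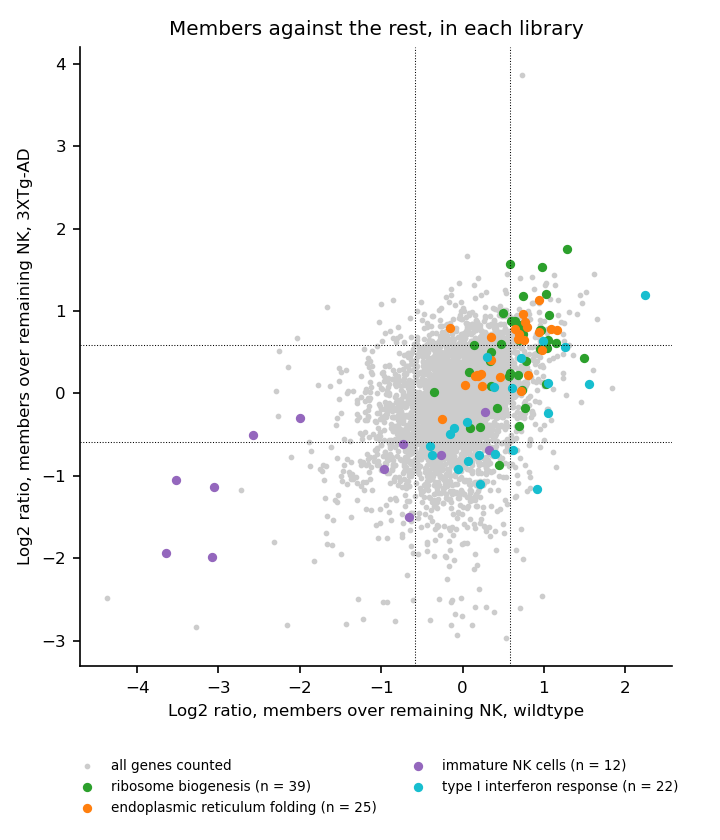
Log2 ratio of members over remaining NK barcodes in 3XTg-AD against that in wildtype, 1 point per gene with at least 100 UMIs in each library, with 4 gene lists coloured and dotted lines at 1.5-fold. Ribosome biogenesis and endoplasmic reticulum folding genes lie to the upper right, immature NK genes to the lower left, and type I interferon genes spread downward on the 3XTg-AD axis.

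Other genes with the clearest ratios in both libraries had varied roles. Entpd1, encoding the ATP-degrading enzyme CD39, stood at 71.6 and 34.0 CPM in wildtype and at 188 and 85 CPM in 3XTg-AD, 2.11-fold (1.5 to 2.92) and 2.21-fold (1.58 to 3.03), so both 3XTg-AD groups lay above both wildtype groups. Capg, which caps actin filaments, was 2.72-fold and 2.28-fold, Fgl2, a secreted fibrinogen-like protein gene, 2.31-fold and 1.82-fold, and S100a6, a calcium-binding protein gene, 1.58-fold and 1.92-fold. Downward, Ypel3, a growth-limiting gene, was 0.310-fold and 0.414-fold, and Ccng2, encoding an atypical cyclin of quiescent cells, 0.412-fold and 0.178-fold. The replication histone gene Hist1h2ap was 0.328-fold and 0.280-fold, and its near-identical copies make its count uncertain.

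The levels changed gradually along the score. In wildtype, Prf1 stood at 757 CPM in the lowest 50% of NK barcodes, 1285 in those from 20 to 50%, 1700 from 10 to 20%, 2287 from 5 to 10% and 3255 in the top 5%. In 3XTg-AD it stood at 913, 1450, 1593, 2504 and 2694 CPM over the same ranges. Ribosome biogenesis genes summed to 3217, 3625, 3847, 4468 and 5940 CPM in wildtype and to 2954, 3235, 3677, 3893 and 5684 CPM in 3XTg-AD. Both therefore already differed among barcodes outside the members. The interferon list in wildtype was 3688, 3414, 4054, 3727 and 5722 CPM, highest in the top range, and in 3XTg-AD it was 3143, 2401, 2277, 2184 and 1724 CPM. The top range held 126 wildtype and 19 3XTg-AD barcodes.

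**Figure D5:**
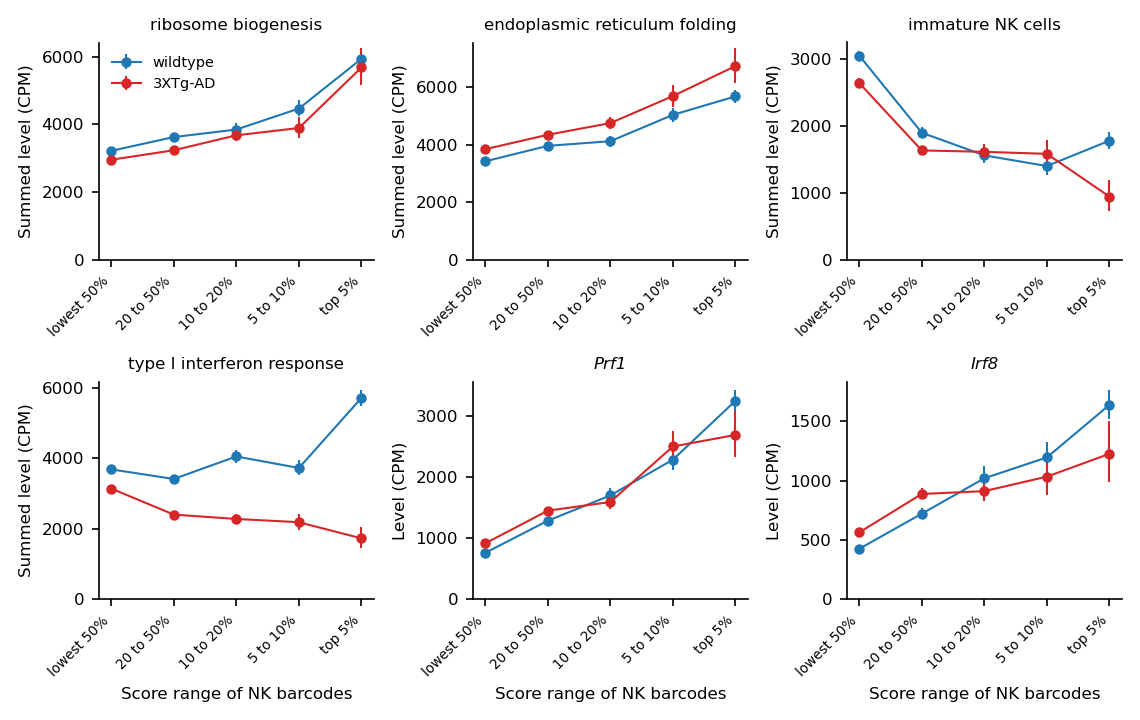
Summed level in CPM, with 95% Poisson intervals, of 4 gene lists and 2 genes over 5 ranges of the pooled score, for each library. Prf1, Irf8, ribosome biogenesis and endoplasmic reticulum folding step upward over the ranges in both libraries, and the interferon list is highest in the top range in wildtype and lowest there in 3XTg-AD.

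Because Gzmb dominated the score, the description was repeated for the top 10% of NK barcodes by the other 5 genes alone, of which 137 of 290 were members. Myc and Srm are among those 5 genes. Nop58 had log2 ratios of 1.17 in wildtype and 1.11 in 3XTg-AD, Eef1e1 1.39 and 1.36, and Nop16 1.34 and 0.87, and the ribosome biogenesis medians were 0.80 and 0.35. Other growth genes were near the rest in 3XTg-AD, with 1.13 and 0.04 for Shmt2, 0.95 and -0.0048 for Nme1 and 0.97 and 0.28 for Hspe1, and the serine and folate list had medians of 0.55 and 0.00. Killing genes were nearer to the rest, with 1.0 and 0.12 for Prf1, past 1.5-fold in wildtype alone, and 0.42 and 0.19 for Serpinb9b. Entpd1 had 0.23 and -0.73, and endoplasmic reticulum folding genes medians of 0.27 and 0.05. Of the 15 higher genes with the clearest ratios, 10 were past 1.5-fold in wildtype, 6 in 3XTg-AD and 4, Nop58, Nop16, Eef1e1 and Capg, in both. Of the 15 lower ones, 13 were in wildtype and 6 in 3XTg-AD, the 6 being Stmn1, Hmgb2, Birc5, Hist1h2ap, Tcf7 and Gm43647.

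Wildtype members were also split at the median share of the 5 ranking genes other than Gzmb into 111 barcodes above and 111 below; the ranking values made this split, so its differences are a description only. Type I interferon genes had a median log2 ratio of 0.88 between upper and lower barcodes, 26 of 36 passing 1.5-fold upward and 1 downward, beside -0.02 over all 4499 genes counted, of which 490 were higher and 525 lower. Isg15 stood at 325 CPM above and 122 CPM below, 2.65-fold (1.87 to 3.82). Ribosome biogenesis genes had a median of 0.52, with 18 of 49 higher and 3 lower. Lower in the upper barcodes were single genes such as Serpinb9b at 228 and 413 CPM, 0.552-fold (0.418 to 0.724), Ccl4 at 1494 and 2390 CPM, 0.625-fold (0.561 to 0.696), and Klrg1 at 333 and 530 CPM, 0.628-fold (0.497 to 0.790). The terminal maturation list had a median of -0.33, with 8 of 22 lower and 1 higher, and the cytotoxic effectors a median of -0.12, with 3 of 16 lower and none higher. The upper barcodes also had more Gzmb, 1.40% of their UMIs against 1.05%, and a median of 3494 UMIs against 3068.

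Members of the lines were compared over 1486 genes with at least 100 UMIs in the members of both libraries together. In 3XTg-AD members 78 genes, 5.25%, were at least 1.5-fold higher than in wildtype members and 107, 7.2%, lower, with a median log2 ratio of -0.00. Of these, 16 of the 78 and 16 of the 107 were past the same threshold in the same direction in the remaining NK barcodes. In each direction 1 gene was past it the opposite way there. The share of all 1486 genes past the threshold in the remaining NK barcodes is not given, so these counts do not mark genes particular to members. Ratios in members also carry more counting error, with 235830 UMIs in 3XTg-AD members and 4192032 in the 3XTg-AD rest. Wls, which encodes the carrier that exports Wnt proteins, at chr3:159839672-159938664, stood at 487 CPM in wildtype members and 68.4 in 3XTg-AD members, and at 485 and 70.7 CPM in the rest. Its log2 ratio was -2.83 in members and -2.78 in the rest. Pim2 stood at 162 and 29.9 CPM in members and at 58.9 and 32.3 CPM in the rest, log2 ratios of -2.44 and -0.87. Mxd1, encoding a MAX-binding repressor, had -2.56 and -0.52, Serpina3g -1.69 and -0.70, and Isg15 -1.81 and -0.76.

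Of the 10 genes named as higher in 3XTg-AD members, 5 were heat shock genes, which were also higher in the 3XTg-AD rest. Hspa8, encoding the constitutive HSC70 chaperone, stood at 1280 CPM in wildtype members and 3402 in 3XTg-AD members, and at 1350 and 2670 CPM in the rest, log2 ratios of 1.41 and 0.98. Hsp90aa1 had 1.28 and 0.88, Dnaja1 1.36 and 1.05, Dnajb1 1.40 and 0.83, and Stip1, a co-chaperone gene, 1.49 and 1.36. Cd7, a surface protein gene of lymphocytes, stood at 104 CPM in wildtype members and 436 in 3XTg-AD members, and at 620 and 619 CPM in the rest. It was 0.168-fold (0.132 to 0.211) in wildtype members and 0.704-fold (0.572 to 0.858) in 3XTg-AD members against their own rest. Klra8 and Klra9, Ly49 receptor genes with near-identical relatives, had 1.22 and 0.82, and 1.13 and 0.12. Library, handling and line cannot be told apart in any of these values.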

How the data were processed

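The files are 10x Genomics 5′ single-cell matrices, deposited by the authors as raw UMI counts per gene and barcode. Per the submitters' processing notes they were made with Cell Ranger 3.1.0 and STAR on build mm10, while the matrix header gives software version 3.0.2. NK cells were sorted before library preparation, per the labels' protocols. Here, barcodes were filtered and ranked as described, UMIs were summed over members and over the remaining NK barcodes of each library, and sums were scaled to CPM without the 6 score genes. Ratios carry exact conditional binomial 95% intervals for counting error only, a sum of 0 was set to a floor of 3 UMIs, and no p-value was computed because each line has 1 library. The 19 genes of the gates and mitochondrial genes were not counted. Named genes were the 15 higher and 15 lower with counting intervals farthest from 1 in both libraries, up to 4 per list, 10 per direction between lines, and a fixed set; some genes these rules name are not reported here. Members, lists and rules were chosen with earlier results of these data known. The ratio step was tested on simulated data. Doublets were called with Scrublet in scanpy 1.11.5 and kept, except in 1 alternative.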

Additional observations from a re-analysis of the deposited data

Results flagged for a closer look

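In the genes named here the members of the 2 libraries lay on opposite sides of their own remaining NK barcodes, each with a counting interval clear of 1. The difference between the libraries was not tested, since each line has 1 library. The log2 ratios in wildtype and 3XTg-AD were 0.74 and -2.01 for Skil, 0.65 and -1.25 for Tars, a threonyl-tRNA synthetase gene, and 0.97 and -2.45 for Egr1. They were -0.86 and 1.14 for Dram2, -1.0 and 1.08 for Lgals3, the galectin-3 gene, -1.66 and 1.05 for BC018473, and -0.64 and 0.92 for Cebpzos. Skil and Egr1 had 2 UMIs each in 3XTg-AD members, both of Egr1 in 1 barcode. Over all 4939 counted genes, 25 were at least 1.5-fold higher in wildtype members and lower in 3XTg-AD members, and 17 the reverse. Of the same genes, 6.22% were higher and 11.1% lower in wildtype, and 7.96% higher and 16.3% lower in 3XTg-AD. Whether genes on opposite sides are more or fewer than these shares would give was not tested.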

How the results depend on the processing

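Each alternative changed 1 choice; 12 were planned and 3, leaving out interferon-high barcodes, erythroid or neutrophil barcodes, or each gene's top member barcode, were added after seeing the data. The 102 genes higher in both libraries became 185 for the top 5% of barcodes, 43 for the top 20%, 67 with each library ranked alone, 52 without Gzmb in the score, 66 by mean rank, 66 after thinning, 230 at a minimum of 20 UMIs, 13 at 2-fold and 64 without top barcodes. The 202 lower became 315, 65, 111 without Gzmb, 130 by mean rank, 92 after thinning, 552, 44 and 378 in the corresponding settings. Between lines, the 78 higher became 136 for the top 20%, 116 with each library ranked alone, 24 after thinning, 729 and 14. The 107 lower became 109 with each library ranked alone, 41 after thinning, 832 and 33. Without Gzmb 137 members, 47.2%, were shared with the members described, by mean rank 165, and with each library ranked alone 212.

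For the 30 genes with the clearest ratios, 767 of 898 values stayed within their counting interval and 17 changed sign; of 1020 list medians 4 past 1.5-fold changed sign. In wildtype these were the interferon list without interferon-high barcodes (-0.15), Hist1h2ap without dividing barcodes (0.086) and Nr4a1 without Gzmb (-0.56) or its top barcode (-0.28). In 3XTg-AD, without Gzmb, the immature list was 0.91, the type 1 innate lymphoid list 1.16, Rb1cc1 0.41, Nme1 -0.0048, Il7r 1.62, Ltb 1.55 and Entpd1 -0.73. By mean rank, the immature list was 0.017, Stmn1 0.47, Hmgb2 0.34, Birc5 1.81, Hist1h2ap 1.05 and Nr4a1 -3.08. Hist1h2ap was 0.51 for the top 20% and 0.079 with each library ranked alone. Nr4a1 was -0.46 for the top 5% and -1.98 without its top barcode, both with 0 member UMIs and thus at the floor of 3 UMIs. The cause was not tested. No paired analysis was possible because each line has 1 library and the result comes from no test. The 68 3XTg-AD members limit low genes most: 10 UMIs there carry intervals such as 1.36 to 5.87 for Mthfd2.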

Other observations

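Ly6a, which encodes the surface protein Sca-1, had 22 UMIs in wildtype members, 10 of them in 1 barcode, and 43 in the remaining wildtype NK barcodes, and 0 in all 1457 3XTg-AD NK barcodes, which allows up to 0.253% of barcodes with a UMI (exact binomial). In wildtype it stood at 29.7 and 11.5 CPM, 2.58-fold (1.47 to 4.41). Klra1, a Ly49 receptor gene, was higher in members of both libraries, at 398 and 228 CPM in wildtype and at 171 and 85.3 CPM in 3XTg-AD, while Klra8 was at 0.511-fold and 0.675-fold; near-identical Ly49 copies make these counts uncertain. Cd160, a receptor gene of the immunoglobulin family, was at 0.296-fold (0.170 to 0.482) and 0.529-fold (0.251 to 0.985).

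Of 25 counted immediate early genes, often raised by cell isolation, 7 were higher and 5 lower in wildtype members, with a median of 0.23. In 3XTg-AD members 3 were higher and 5 lower, with a median of -0.05. Over all genes counted for lists, 8.51% were higher and 19.8% lower in wildtype, and 12.1% and 20.6% in 3XTg-AD. The 3XTg-AD counts and the lower count in wildtype lay close to these shares. The list summed to 1.31-fold (1.26 to 1.36) and 0.955-fold (0.893 to 1.02), and its part in the other ratios was not tested. Nr4a1 was past 1.5-fold upward in both libraries, but without its top member barcode the log2 ratios were -0.28 in wildtype and -1.98 in 3XTg-AD. The 3XTg-AD value is at the floor of 3 UMIs. Fos and Ppp1r15a were lower in both. Fos had 2 UMIs in wildtype members and 5 in 3XTg-AD members, with ratios of 0.180 (0.0213 to 0.682) and 0.483 (0.155 to 1.15), and Jun ratios of 0.753 (0.495 to 1.11) and 0.659 (0.399 to 1.03).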
